A study of Rattus norvegicus with 28 samples.

Results

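The genes described are 6 that are used to recognise astrocytes and their precursors: Gfap, Vim, Nes, S100b, Gja1 and Glul. They were chosen by gene symbol. On the rat bead array, 5 of the 6 had a probe of that symbol, each with 1 probe, out of 22523 probes in all and 11364 that were measurable. Glul, which encodes glutamine synthetase, was not analysed here, because no probe matched it by symbol, gene ID or accession.

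RNA was taken from C6 cells, a rat glioma line induced by a nitrosourea carcinogen and kept as a homogeneous stand-in for astrocytes. In each group the cells had spent 24 h without serum. The groups were cells given desipramine (6 arrays), fluoxetine (6 arrays), haloperidol (6 arrays) or diazepam (4 arrays, replicate numbers 1, 4, 5 and 6), each at 25 µM for 2 h, and untreated cells (6 arrays). Both antidepressants block monoamine uptake, desipramine mainly that of noradrenaline and fluoxetine that of serotonin; haloperidol is an antipsychotic and diazepam a benzodiazepine. The labels call the replicates biological, but all come from 1 line at 1 passage after thawing, and the labels name no vehicle in the control.

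Astrocytes and their precursors build a cytoskeleton from a few intermediate filament proteins. Nestin, from Nes, marks neural precursors, vimentin, from Vim, is made by precursors and immature or reactive astrocytes, and glial fibrillary acidic protein, from Gfap, marks mature and reactive astrocytes. S100b encodes a calcium-binding protein that astrocytes hold and secrete. Gja1 encodes connexin 43, the main gap junction protein by which astrocytes exchange ions and small molecules. Gfap and vimentin levels are commonly followed when astrocytes become reactive.

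Upstream sequence is shown for 2 of the 5 genes. Vim is shown because only it, of the 5, passed the threshold against untreated cells in the fit without replicate numbers. Gja1 is shown because it stood nearest to the threshold in that fit between the antidepressants and the other drugs. Each sequence is the 250 bases before the gene's RefSeq start on the plus strand of GRCr8, at chr17:81577011-81577260 for Vim and chr20:36302314-36302563 for Gja1, written 5′ to 3′. Capitals mark a TATAAA match in Vim and a match to the AP-1 motif TGANTCA in Gja1.

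Vim: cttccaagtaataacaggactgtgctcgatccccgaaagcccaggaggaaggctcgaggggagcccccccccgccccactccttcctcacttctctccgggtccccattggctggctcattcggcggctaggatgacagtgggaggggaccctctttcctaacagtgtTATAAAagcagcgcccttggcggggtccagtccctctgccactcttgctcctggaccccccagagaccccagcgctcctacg

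Gja1: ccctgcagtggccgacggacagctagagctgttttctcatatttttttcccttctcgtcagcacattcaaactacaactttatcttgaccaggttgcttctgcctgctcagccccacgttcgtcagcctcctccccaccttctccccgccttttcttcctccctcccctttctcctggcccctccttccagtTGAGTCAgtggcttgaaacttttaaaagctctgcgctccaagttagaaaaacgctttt

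The Vim match began at base -82 and the Gja1 match at base -58, where -1 is the last base printed. Both strands were searched for TATAAA (the TATA box), TGANTCA (AP-1), CCAAT (the CCAAT box) and GGGCGG (the GC box), none of which contains another. Vim also held CCAAT, first base at -144, and GGGCGG, first base at -180, both on the minus strand. Of 33469 RefSeq promoters of this length in the rat, 12.9% held TATAAA and 6.34% TGANTCA. The CCAAT box was in 34% and the GC box in 30.5%. Gfap held none of the 4 motifs in this window, Nes held GGGCGG at -54 and -43, and S100b held CCAAT at -246, -135 and -38. The match to AP-1 in Gja1 was the only one among the 5 genes that had a probe, and such a match is only a string of letters.

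All 5 genes were detected on all 28 arrays, at a detection p (the share of negative control beads at least as bright) no higher than 0.002424. Values are log2 intensities after background correction and quantile normalization, on which 1 unit is a doubling. Each gene was measured by its own probe, so levels are compared between groups and not between genes. Within a group the 5 genes varied by 0.15 to 0.19 (SD, log2), close to the median of 0.17 over all measurable probes. Arrays held 9839 to 10537 detected probes each and had raw median intensities of 80.8 to 108.2, with overlapping ranges in all groups.

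The line carried only some of the wider astrocyte signature. Of 10 further astrocyte markers, 8 had a probe and 4 were measurable: the glutamate transporters Slc1a2 (detected on 19 of 28 arrays) and Slc1a3, the glycolytic enzyme gene Aldoc and Ndrg2, the last 3 on all 28 arrays. Aqp4, Gjb6, Kcnj10 and Fabp7, which encode a water channel, connexin 30, a potassium channel and a lipid-binding protein of radial glia, were detected on no array. Of 10 oligodendrocyte lineage markers 5 were detected on all 28 arrays, among them Olig1, Cspg4 and Cnp, and so were 4 of 8 fibroblast and mural markers, among them the collagens Col1a1 and Col1a2. Of 10 neuron markers 5 were detected on all arrays, whereas 0 to 3 of 6 microglial probes were detected per array and 0 to 2 of 6 endothelial ones. Transcripts of the 5 glial genes were thus present throughout, beside some of other lineages.

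**Figure D1:**
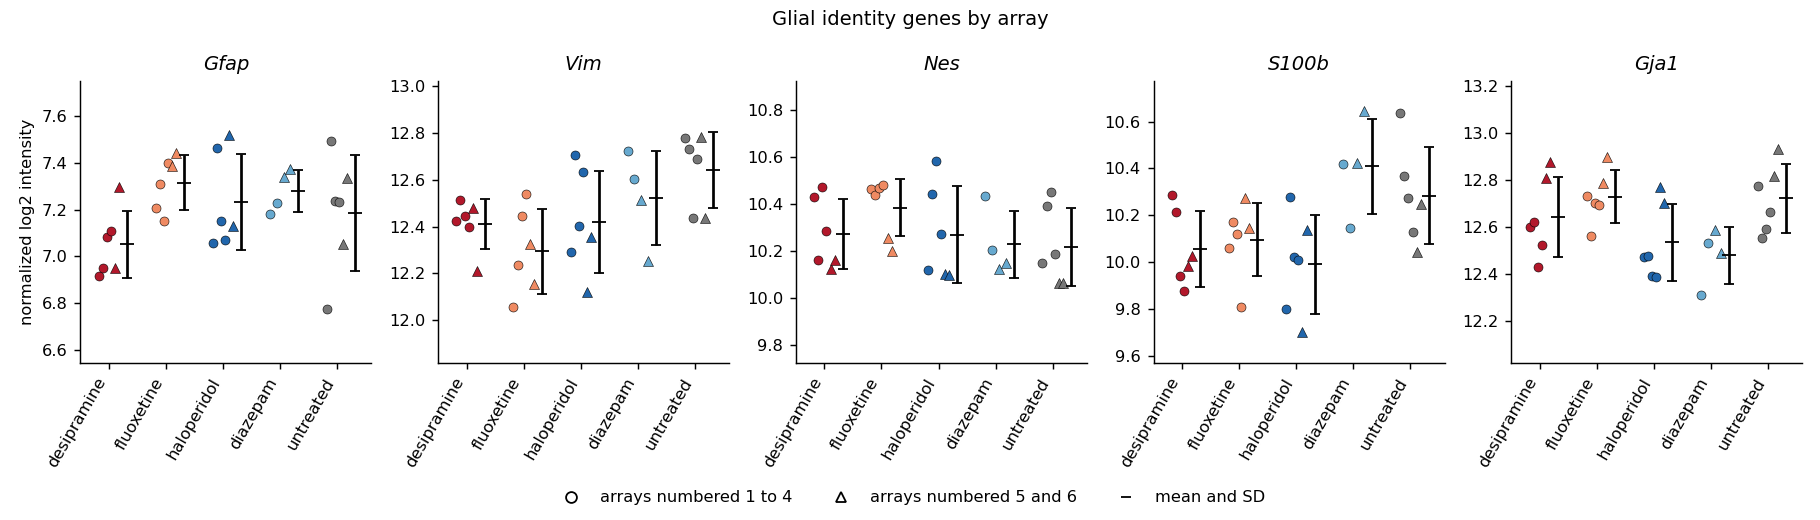
Normalized log2 intensity (y axis, the same span of 1.2 units in each panel) of the 5 glial identity genes on each of the 28 arrays in 5 groups (x axis), with the group mean and SD as bars. Circles are arrays numbered 1 to 4 and triangles those numbered 5 and 6; Vim sits lower with fluoxetine than in untreated cells with partial overlap, and in Nes the triangles lie at the bottom of each group.

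After 2 h the 5 genes had moved little. Of 20 differences between a drug and untreated cells (5 genes, 4 drugs), 1 passed an adjusted p of 0.05, the fall of Vim with fluoxetine, in limma with Benjamini-Hochberg adjustment over all 11364 probes. The 95% confidence intervals of the 20 differences reached at most 0.682-fold on the low side, for Vim with fluoxetine, and 1.29-fold on the high side, for S100b with diazepam. On the array as a whole, 5.56% of probes passed with desipramine, 3.74% with fluoxetine (1.53% as a fall), 3.74% with haloperidol and 0.792% with diazepam. The 5 genes gave 0, 1, 0 and 0 calls in that order of drugs. With the replicate number as a block the shares were 9.78% with desipramine and 7.61% with fluoxetine. The 5 genes then gave 0 and 1 calls. With haloperidol and diazepam, not shown to be paired with untreated cells, they gave 2 and 1, against 7.51% and 1.51% of all probes. Without the block, 2 of 5 with desipramine, 3 of 5 with haloperidol and 1 of 5 with diazepam, where 0 passed, had an unadjusted p under 0.05. Of all probes, 17.8%, 16.1% and 9.31% had one with these 3 drugs. The comparisons with untreated cells share the same 6 untreated arrays, so they are not independent of each other.

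Vimentin mRNA was the 1 that fell. With fluoxetine the lowest, median and highest Vim values were 12.06, 12.28 and 12.54, against 12.44, 12.71 and 12.78 in untreated cells. Of the 6 fluoxetine arrays, 4 lay below every untreated array and all 6 below the untreated mean, but the highest fluoxetine arrays overlapped the lowest untreated ones. The mean was 12.29 ± 0.18 with fluoxetine and 12.64 ± 0.16 in untreated cells (SD, n = 6 each). The log2 change was -0.35 ± 0.10 (SE), a 0.785-fold level, with a limma adjusted p of 0.0434 after Benjamini-Hochberg adjustment. An exact two-sided permutation test over the 12 arrays gave p = 0.013, with 0.00216 as the smallest that 924 splits allow. In bulk RNA, fewer cells of a type and less RNA per cell cannot be told apart.

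This call stood close to the threshold. With the replicate number as a block, the change was -0.35 and the limma adjusted p 0.0144. The other settings given here were fitted without the block. With median scaling in place of quantile normalization the change was -0.47 and the adjusted p 0.0868, without the detection filter the adjusted p was 0.0695, and with only the groups compared in the fit it was 0.0551. Among arrays numbered 1 to 4 the change was -0.34 (adjusted p = 0.12) and among those numbered 5 and 6 it was -0.37 (adjusted p = 0.715). The call was lost without untreated replicate 1, 2, 4 or 5 or fluoxetine replicate 1, 2, 5 or 6, at adjusted p from 0.0609 to 0.119, while the change stayed between -0.40 and -0.30 under every array left out.

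The other drugs also had lower mean Vim than untreated cells, without passing the test. With desipramine the lowest, median and highest values were 12.21, 12.43 and 12.51, and the log2 change was -0.23 ± 0.10 (limma adjusted p = 0.203). With haloperidol they were 12.12, 12.38 and 12.71, and the change was -0.22 ± 0.10 (adjusted p = 0.25). With diazepam the 4 arrays read 12.72, 12.60, 12.51 and 12.25, and the change was -0.12 ± 0.11 (adjusted p = 0.833). Set against the untreated array of the same replicate number, Vim was lower on 5 of 6 desipramine arrays, 5 of 6 fluoxetine arrays, 6 of 6 haloperidol arrays and 4 of 4 diazepam arrays. Haloperidol and diazepam arrays were not shown to be paired with untreated ones by number, which holds for such counts below as well. From high to low the group means ran untreated, diazepam, haloperidol, desipramine, fluoxetine, and only the 2 ends of that order differed past the threshold.

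Gfap, the filament gene of mature and reactive astrocytes, showed no difference from untreated cells that passed the test, and its 4 drug means lay on both sides of the untreated mean. With desipramine the lowest, median and highest values were 6.92, 7.02 and 7.30, with fluoxetine 7.15, 7.35 and 7.44, and with haloperidol 7.06, 7.14 and 7.52. The diazepam arrays read 7.18, 7.23, 7.34 and 7.37, and the untreated ones ran from 6.78 over a median of 7.23 to 7.49. The untreated arrays thus spanned nearly the whole range of the treated ones. The log2 changes were -0.14 with desipramine, 0.13 with fluoxetine and 0.05 with haloperidol, each ± 0.10 (SE), and 0.09 ± 0.11 with diazepam, at adjusted p of 0.542 or more. The signs for haloperidol and diazepam are not settled, since array weights gave -0.002 for haloperidol and median scaling gave -0.05 for diazepam.

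Gfap was lower with desipramine than with fluoxetine by 0.26 ± 0.10 (SE) on the log2 scale, a 0.833-fold level, at a limma adjusted p of 0.106. Desipramine and fluoxetine arrays were treated as paired, but only 3 of 6 desipramine arrays correlated best with the fluoxetine array of their own number. With the replicate number as a block, the change was -0.26 and the adjusted p 0.0433. Without desipramine replicate 6, the highest of its group, it was -0.31 at an adjusted p of 0.0451. From high to low the Gfap means ran fluoxetine, diazepam, haloperidol, untreated, desipramine, and no neighbours in that order differed past the threshold.

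Nes, the nestin gene, had the narrowest span of group means of the 5 genes, and none of its differences from untreated cells passed. Its lowest, median and highest values were 10.12, 10.22 and 10.47 with desipramine, 10.20, 10.45 and 10.48 with fluoxetine, and 10.10, 10.20 and 10.58 with haloperidol. The diazepam arrays read 10.44, 10.20, 10.12 and 10.15, and the untreated arrays ran from 10.06 over a median of 10.17 to 10.45. The log2 changes were 0.05, 0.17 and 0.05 with desipramine, fluoxetine and haloperidol, each ± 0.09 (SE), and 0.01 ± 0.10 with diazepam. The fluoxetine change was the largest, with an adjusted p of 0.406, and 3 of 6 fluoxetine arrays lay above every untreated array. Against the untreated array of the same number, Nes was higher on 5 of 6, 6 of 6, 5 of 6 and 4 of 4 arrays with desipramine, fluoxetine, haloperidol and diazepam. With median scaling, which puts the median of all probes at -0.09 for desipramine and -0.12 for diazepam, the Nes changes were -0.07 and -0.17, so for those drugs the sign depends on the scaling. From high to low the Nes means ran fluoxetine, desipramine, haloperidol, diazepam, untreated, with no neighbours that differed past the threshold.

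**Figure D2:**
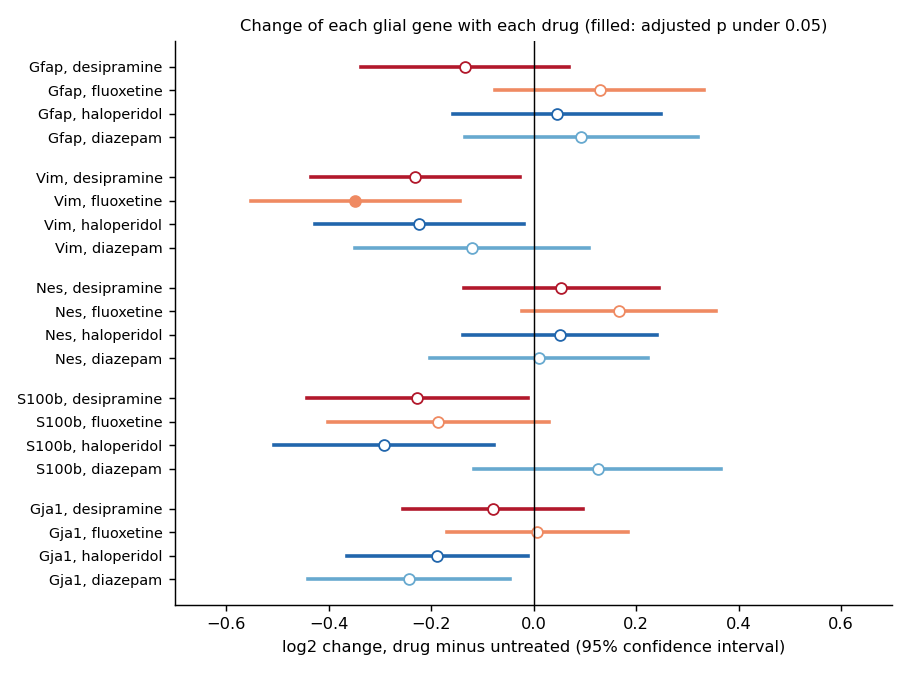
Log2 change of each gene with each drug relative to untreated cells (x axis) with its 95% confidence interval, by gene and drug (y axis); the filled point marks the 1 of 20 differences with an adjusted p under 0.05, Vim with fluoxetine. No interval reaches below 0.682-fold or above 1.29-fold.

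S100b, the calcium-binding protein gene, was lower on average with 3 of the 4 drugs, by amounts that did not pass the test. Its lowest, median and highest values were 9.88, 10.01 and 10.29 with desipramine, 9.81, 10.13 and 10.27 with fluoxetine, and 9.70, 10.02 and 10.28 with haloperidol. The diazepam arrays read 10.42, 10.15, 10.42 and 10.64, and untreated arrays ran from 10.05 over a median of 10.26 to 10.64. Of 6 haloperidol arrays and of 6 desipramine arrays, 4 each lay below every untreated array.

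The S100b changes were -0.23 with desipramine (limma adjusted p = 0.25), -0.19 with fluoxetine (0.416) and -0.29 with haloperidol (0.129), each ± 0.11 (SE; Benjamini-Hochberg adjustment). With diazepam the change was 0.13 ± 0.12 (adjusted p = 0.836), and its sign turned with median scaling, to -0.06. Exact permutation p values over the arrays were 0.0541, 0.117, 0.0346 and 0.357 in the same order, not adjusted for the 20 comparisons. With the replicate number as a block, the haloperidol change was -0.29 at a limma adjusted p of 0.0485. Against the untreated array of the same number, S100b was lower on 6 of 6 desipramine arrays, 5 of 6 fluoxetine arrays, 6 of 6 haloperidol arrays and 1 of 4 diazepam arrays. From high to low the means ran diazepam, untreated, fluoxetine, desipramine, haloperidol.

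The largest S100b differences were between drugs, and none of them passed. It was lower with haloperidol than with diazepam by 0.42 ± 0.12 (SE), a 0.749-fold level, at a limma adjusted p of 0.0546. It was lower with desipramine than with diazepam by 0.35 ± 0.12 (adjusted p = 0.0614), and lower with fluoxetine than with diazepam by 0.31 ± 0.12 (adjusted p = 0.143). With the replicate number as a block, the last of these was -0.35 at an adjusted p of 0.038. These near-threshold differences leaned on single arrays in both directions. Without diazepam replicate 4, the lowest diazepam array, the haloperidol and desipramine differences were -0.51 (adjusted p = 0.0286) and -0.44 (0.028). Without haloperidol replicate 2 the haloperidol difference was -0.48 (adjusted p = 0.0283), and without desipramine replicate 1 the desipramine difference was -0.40 (0.0383). Without diazepam replicate 6, the highest diazepam array, the haloperidol and desipramine differences were -0.34 (adjusted p = 0.192) and -0.27 (0.241).

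Gja1, the connexin 43 gene, was lower on average with haloperidol and diazepam. Its lowest, median and highest values were 12.43, 12.61 and 12.88 with desipramine, 12.56, 12.72 and 12.90 with fluoxetine, and 12.39, 12.47 and 12.77 with haloperidol. The diazepam arrays read 12.31, 12.53, 12.59 and 12.49, and untreated arrays ran from 12.55 over a median of 12.72 to 12.93. Of the 6 haloperidol arrays 4 lay below every untreated array, and of the 4 diazepam arrays 3 did.

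The Gja1 changes were -0.19 ± 0.09 with haloperidol (limma adjusted p = 0.268) and -0.24 ± 0.10 with diazepam (0.361; SE, Benjamini-Hochberg adjustment). They were -0.08 ± 0.09 with desipramine (0.719) and 0.01 ± 0.09 with fluoxetine (0.984), where the sign turned to -0.12 with median scaling. The exact permutation p was 0.0628 with haloperidol and 0.0238 with diazepam, where 0.00952 is the smallest that 210 splits allow. With the replicate number as a block, the haloperidol change was -0.19 (limma adjusted p = 0.0465) and the diazepam change -0.30 (0.0153). Against the untreated array of the same number, Gja1 was lower on 5 of 6 desipramine, 3 of 6 fluoxetine, 6 of 6 haloperidol and 4 of 4 diazepam arrays. From high to low the means ran fluoxetine, untreated, desipramine, haloperidol, diazepam, and no neighbours differed past the threshold.

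The design also sets the 2 antidepressants against the 2 drugs without that property. Of the 5 genes 0 passed in limma, against 7.15% of all probes, and 1 had an unadjusted p under 0.05, against 18.9% of all probes. That gene was Gja1, which averaged 12.69 over the antidepressant groups and 12.51 over the haloperidol and diazepam groups, a log2 difference of 0.18 ± 0.07 (SE, 12 against 10 arrays, adjusted p = 0.0932). Gfap differed by -0.07, S100b by -0.12, Vim by -0.12 and Nes by 0.08, at adjusted p of 0.441 or more. With the replicate number as a block 1 of the 5 passed, Gja1 (0.21, limma adjusted p = 0.00217), against 11.3% of all probes. Each class is represented by 2 drugs, so these values concern the 4 drugs used and not the classes.

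Between single drugs, 30 differences were tested (5 genes, 6 pairs of drugs), and 0 passed an adjusted p of 0.05 in limma, with 7 at an unadjusted p under 0.05. By pair, 13.7% to 20.9% of all probes had such an unadjusted p. In none of the 30 did the arrays of the 2 drugs separate without overlap. Such a separation was rare over the array too, at 1.16% to 2.86% of all probes downward and 1.5% to 3.63% upward, by pair. Of all probes, 8.27% passed between desipramine and fluoxetine, 8.27% between desipramine and haloperidol, 8.1% between desipramine and diazepam, 3.6% between fluoxetine and haloperidol, 4.77% between fluoxetine and diazepam and 2.3% between haloperidol and diazepam. With the replicate number as a block, 7 of the 30 passed, where 5.93% to 13.1% of all probes did, by pair. For Gja1, fluoxetine lay above diazepam by 0.25 ± 0.10 (SE, adjusted p = 0.153), and with the replicate number as a block the difference was 0.31 at an adjusted p of 0.00376. Beyond that, Gja1 with fluoxetine lay 0.20 ± 0.09 above haloperidol, and Vim with fluoxetine 0.23 ± 0.11 below diazepam. The drugs share no stated structural series, so the differences are given by drug only.

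Nes and Gja1 also differed by replicate number, by amounts like those seen between a drug and untreated cells. On all 10 arrays numbered 5 or 6, in all 5 groups, Nes lay below its group mean, by 0.14 on average, and on the 18 other arrays it lay 0.08 above on average. Gja1 lay above its group mean on all 10 of those arrays, by 0.15 on average, and 0.08 below it on the 18 others, 15 of which were below. The gap between the 2 sets of arrays was -0.22 for Nes and 0.23 for Gja1, and 18.4% and 17% of all probes had a larger one in either direction. Vim had a gap of -0.15, Gfap of 0.11 and S100b of -0.01. What the numbers stand for is not given in the labels. Each group holds both sets, and all but diazepam hold every number, so the means of those groups are balanced over the numbers. Diazepam lacks numbers 2 and 3. With the number as a block, its Nes change from untreated cells was 0.08, against 0.01 without the block. Its Gja1 change was -0.30, against -0.24.

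**Figure D3:**
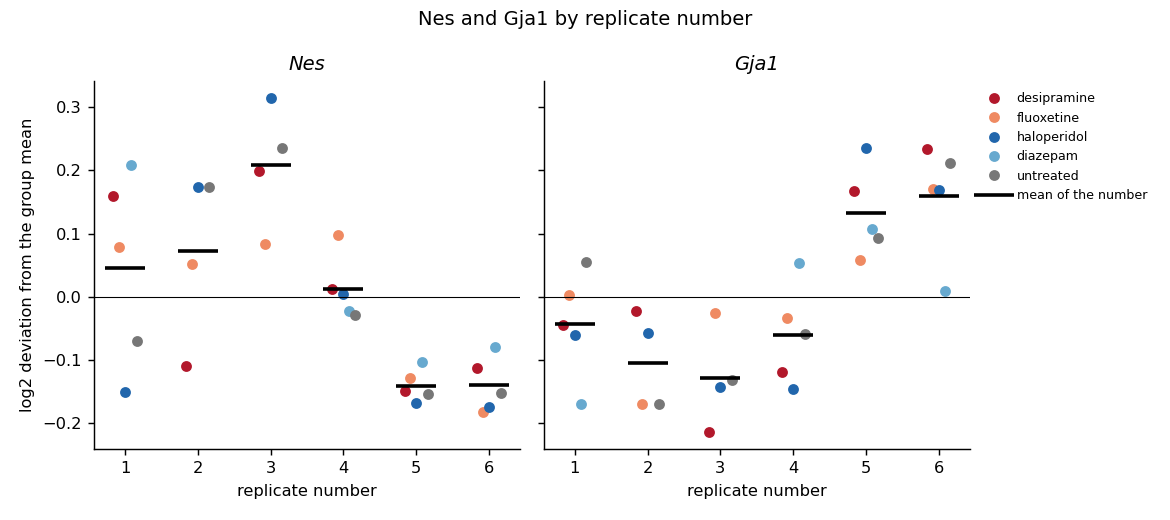
Deviation of Nes and Gja1 from their group mean (y axis, log2) on each array, by replicate number (x axis), coloured by group, with the mean of each number as a bar. All arrays numbered 5 and 6 lie below 0 for Nes and above 0 for Gja1.

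Genes whose pattern over the 28 arrays was most like each of the 5 were sought among 6328 named genes detected on every array, after each replicate number's mean was removed. For Gja1 they were Ampd3 (Pearson r = 0.925, Spearman rho = 0.927), Sdc2 (r = 0.865) and Adamts1 (r = 0.862). For S100b they were Tgfbi (r = 0.909, rho = 0.866), Vkorc1 (r = 0.907) and Ctsh (r = 0.864), and for Vim Mrps24 (r = 0.862, rho = 0.839), Rbm3 (r = 0.847) and Lhpp (r = 0.844). Likeness was lower for Gfap, with Parp3 (r = 0.792), Lgi4 (r = 0.735) and Necap2 (r = 0.724), and for Nes, with Bdh2 (r = 0.683), Ccs and Srp68 (both r = 0.674). These arrays share drug groups and replicate numbers, and the values depend on removing the number: without that step Rbm3 had r = 0.346 with Vim and Ampd3 r = 0.629 with Gja1. They are given as a description.

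Related genes of the same pathways were read from fixed lists, on the same fit. Each count below stands beside the background shares given above, and adding up the lists would count some genes more than once. None of the calls against untreated cells named in the following paragraphs held when only the arrays numbered 5 and 6 were used, at 2 arrays a group, where adjusted p was 0.294 or more.

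Of 16 intermediate filament and linker genes other than the 3 above, 12 had a probe and 10 were measurable. Fluoxetine lowered 1, haloperidol 2, diazepam 1 and desipramine 1, and 0 rose with any drug. Nefl, the light neurofilament subunit, had values of 9.62 to 9.84 with fluoxetine (median 9.72) and 9.83 to 9.97 with haloperidol (median 9.90), against 10.22 to 10.48 in untreated cells (median 10.29). Neither drug's arrays overlapped the untreated ones, which was so, downward, for 1.26% of all probes with fluoxetine and 1.24% with haloperidol. The Nefl changes were -0.58 ± 0.08 with fluoxetine (limma adjusted p = 1.31e-05) and -0.40 ± 0.08 with haloperidol (0.00271). With diazepam Nefl changed by -0.41 ± 0.09 (adjusted p = 0.019), whereas with desipramine its log2 difference of -0.08 ± 0.08 did not pass. With median scaling the haloperidol and diazepam calls were lost (adjusted p = 0.247 and 0.219). The diazepam call was lost without diazepam replicate 6 (0.196), among arrays numbered 1 to 4 (0.493) and with only the groups compared (0.157).

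Nefm, the medium neurofilament subunit, passed with haloperidol, at -0.28 ± 0.08 (limma adjusted p = 0.0438). Krt19, a simple epithelial keratin, passed with desipramine, at -0.61 ± 0.16 (adjusted p = 0.0181). The Nefm call was lost when any 1 of 10 of the 12 arrays was left out (haloperidol replicates 1, 2, 5 and 6 and untreated replicates 1 to 6, adjusted p from 0.0509 to 0.148) and in 7 other settings, among them median scaling (0.188). The Krt19 call was lost without untreated replicate 2 or desipramine replicate 4 or 5 (0.0523 to 0.0688). Nefl and Nefm are also neuron markers. Of 10 neuron probes, 5 to 7 were detected per array, with Snap25 and Slc17a7 never detected. Their mean log2 level per array was 6.32 to 6.40 with desipramine, 6.27 to 6.43 with fluoxetine, 6.25 to 6.30 with haloperidol, 6.24 to 6.35 with diazepam, and 6.37 to 6.44 in untreated cells. Gad1, the gene of a GABA-synthesising enzyme and also a neuron marker, changed by -0.38 ± 0.10 with haloperidol (adjusted p = 0.019). The Gad1 call was lost with median scaling (0.187) and without untreated replicate 5 (0.0652) or haloperidol replicate 2 (0.0598). The neuron mean above includes Nefl, Nefm and Gad1 themselves, so it is not a separate measure of neuron transcripts. The part of the other neuron markers in the filament results was not tested.

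Of 15 connexin and pannexin genes other than Gja1, 10 had a probe and 6 were measurable, and the only call was Gja4, connexin 37. Gja4 values were 5.88 to 6.57 with desipramine (median 6.43) and 6.19 to 6.59 with fluoxetine (median 6.32), against 6.56 to 7.12 in untreated cells (median 6.79). All but the highest arrays of each drug lay below the untreated ones. The changes were -0.54 ± 0.11 with desipramine (limma adjusted p = 0.00281) and -0.47 ± 0.11 with fluoxetine (0.0112). They were -0.36 ± 0.11 with haloperidol and -0.00 ± 0.13 with diazepam, neither past the threshold. The 6 haloperidol arrays, at 6.40 to 6.51, still all lay below the untreated ones, which was so, downward, for 1.24% of all probes. The fluoxetine call was lost among arrays numbered 1 to 4 (0.0543). Gja4 was also lower with the antidepressants than with haloperidol and diazepam, by 0.33 ± 0.09 (SE, adjusted p = 0.0138), opposite in sign to Gja1, and that call was lost with median scaling (0.073) and among arrays numbered 1 to 4 (0.058). Between single drugs Gja4 passed for desipramine and fluoxetine against diazepam (mean 6.83), and for neither against haloperidol (mean 6.47).

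Of 13 S100 genes other than S100b, 12 had a probe and 8 were measurable on all 28 arrays, and 0 passed in limma with any drug. Their signs were negative for 7 with desipramine, 7 with fluoxetine, 8 with haloperidol and 4 with diazepam, of 8 each. The median log2 changes were -0.04, -0.12, -0.13 and 0.00, where all measurable probes had medians of -0.01, -0.00, -0.00 and 0.00. S100a1 and S100a11 had log2 differences of -0.08 to 0.13 and of -0.06 to 0.05 over the 4 drugs.

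The list of glial progenitor and astrogliogenesis genes held 20, of which 15 had a probe and 11 were measurable. Its calls were 1 higher and 1 lower with desipramine, 1 lower with fluoxetine, 1 lower with haloperidol and 0 with diazepam, all in the Hes and Hey genes, transcriptional repressors known as targets of Notch signalling. Hes1 was 8.42 to 9.10 with desipramine (median 8.97), against 7.87 to 8.503 in untreated cells (median 8.07), with only the lowest desipramine array inside the untreated range. The Hes1 change was 0.78 ± 0.11 with desipramine (limma adjusted p = 2.02e-05), and 0.29, 0.06 and 0.17 with fluoxetine, haloperidol and diazepam, which did not pass. Hey1 went the other way.

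Hey1 was 6.32 to 6.86 with desipramine (median 6.72), against 6.91 to 7.60 in untreated cells (median 7.30), with no overlap. Such a separation downward was seen in 1.02% of all probes with desipramine. The Hey1 changes were -0.65 ± 0.12 with desipramine (limma adjusted p = 0.00116), -0.57 ± 0.12 with fluoxetine (0.00524) and -0.47 ± 0.12 with haloperidol (0.0248), and 0.11 with diazepam. The haloperidol call was lost with median scaling (0.173), without the detection filter (0.0504), among arrays numbered 1 to 4 (0.171), and without untreated replicate 2 or 4 or haloperidol replicate 5 or 6 (0.0526 to 0.0784). Between the antidepressants and the other drugs, Hes1 was higher by 0.42 ± 0.08 (adjusted p = 0.000743) and Hey1 lower by 0.43 ± 0.09 (0.00245). Single drugs carried both differences. Hes1 passed only for desipramine against each other drug, fluoxetine included. Hey1 passed only for desipramine, fluoxetine and haloperidol, each lower than diazepam. Id3, an inhibitor of helix-loop-helix transcription factors on the same list, was lower with the antidepressants as well, at -0.45 ± 0.13 (limma adjusted p = 0.0304). That call was lost without the detection filter (0.0724) and among arrays numbered 5 and 6 (0.298). It was also lost in 11 of 22 fits that left out 1 array (0.0505 to 0.0655). Between single drugs Id3 passed only for desipramine against diazepam. Against untreated cells Id3 did not pass in this fit. With the replicate number as a block it passed, at -0.43 with desipramine (adjusted p = 0.0023, against 0.159 without the block) and -0.32 with fluoxetine (0.0251, against 0.383).

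Reactive astrocyte genes numbered 20, with 17 on the array and 11 measurable; desipramine raised 3 and fluoxetine 1, and haloperidol and diazepam moved 0. Ptgs2, which encodes cyclooxygenase 2, was 9.66 to 11.37 with desipramine (median 10.60) and 9.97 to 10.53 with fluoxetine (median 10.26), against 9.06 to 9.72 in untreated cells (median 9.43). Its changes were 1.22 ± 0.19 with desipramine (limma adjusted p = 0.000108) and 0.87 ± 0.19 with fluoxetine (0.00579, lost with median scaling at 0.0562). Sphk1, sphingosine kinase 1, changed by 1.05 ± 0.20 with desipramine (adjusted p = 0.00149). Cxcl10, an interferon-inducible chemokine, changed by 0.56 ± 0.14 (0.0107), which was lost with median scaling (0.249). Over the 11 genes the median change was 0.11 with desipramine, 0.05 with fluoxetine, -0.02 with haloperidol and -0.03 with diazepam. The mean log2 level of 6 microglial probes per array lay between 4.92 and 5.07 over all groups, with 0 to 3 of them detected; their part in these results was not tested.

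Glul itself had no probe, but other genes of glutamate and glutamine handling were measured: 16 of 18 had a probe and 15 were measurable. Slc1a5, a neutral amino acid and glutamine transporter, was 9.48 to 10.51 with desipramine (median 10.07), against 9.10 to 9.34 in untreated cells (median 9.27), without overlap (1.46% of all probes separated upward). Its change was 0.77 ± 0.13 (limma adjusted p = 0.000233). The haloperidol arrays, at 9.36 to 9.64, also lay above every untreated one (1.57% of all probes separated so), though Slc1a5 did not pass there. Its means with fluoxetine (9.43) and diazepam (9.52) were above the untreated mean (9.25) too, without passing. Slc1a4, a serine and alanine transporter of the same family, changed by 0.75 ± 0.14 with fluoxetine (adjusted p = 0.000549) and 0.49 ± 0.14 with haloperidol (0.0345). Its means with desipramine (5.95) and diazepam (6.02) were also above the untreated mean (5.66), without passing. The haloperidol call for Slc1a4 was lost with median scaling (0.11), without the detection filter (0.0733), with only the groups compared (0.0603), and without haloperidol replicate 1, 2 or 3 or untreated replicate 1, 2, 5 or 6 (0.0522 to 0.121). Asns, asparagine synthetase, which uses glutamine, changed by 0.47 ± 0.13 with fluoxetine (adjusted p = 0.0279). That call was lost with median scaling (0.271), without the filter (0.0567) and without fluoxetine replicate 1, 2 or 5 or untreated replicate 1, 2, 3 or 4 (0.0509 to 0.089). With diazepam 0 of the 15 passed in limma, against 90 of all 11364 probes (0.792%).

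Of 24 genes of astrocyte transport and metabolism, 19 had a probe and 11 were measurable, and the calls were 1 higher with fluoxetine, 1 higher and 1 lower with haloperidol, and 0 with the other 2 drugs. The metallothionein gene Mt1 changed by 0.72 ± 0.19 with fluoxetine (limma adjusted p = 0.0277) and 0.66 ± 0.19 with haloperidol (0.0479). Untreated arrays spread widely for Mt1, from 11.78 over a median of 11.999 to 13.65, so that the highest lay above every fluoxetine array, the highest of which was 13.20. The fluoxetine call was lost with median scaling (0.222), without the filter (0.0672), with only the groups compared (0.112), and without fluoxetine replicate 2 or 6 or untreated replicate 2, 3, 4 or 5 (0.0502 to 0.0857). The haloperidol call was lost in 5 settings (0.0739 to 0.841) and without any 1 of haloperidol replicates 1 to 6 or untreated replicates 1 to 5 (0.0622 to 0.126). Gpx1, a glutathione peroxidase, changed by -0.49 ± 0.14 with haloperidol (adjusted p = 0.0424), a call lost in 7 settings (0.0515 to 0.5) and without haloperidol replicate 1, 4, 5 or 6 or untreated replicate 1, 2, 4 or 6 (0.0604 to 0.14). The glutamate transporter gene Slc1a3 had log2 differences of -0.10, -0.25, -0.16 and -0.17 with desipramine, fluoxetine, haloperidol and diazepam, none past the threshold.

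Among the oligodendrocyte lineage markers, Olig1, a lineage transcription factor, was 5.42 to 6.47 with desipramine (median 5.79), against 6.23 to 6.66 in untreated cells (median 6.51), and all but the highest desipramine array lay below the untreated ones. Its change was -0.68 ± 0.14 with desipramine (limma adjusted p = 0.00293), and 0.05, 0.03 and 0.09 with fluoxetine, haloperidol and diazepam. Of the 10 markers, 9 had a probe and 7 were measurable, and no other passed with any drug in this fit. With the replicate number as a block, Cnp with desipramine, at -0.19, had an adjusted p of 0.0446. Of 4 measurable fibroblast and mural markers, 3 microglial and 2 endothelial ones, 0 passed with any drug in limma, with Col1a1 at -0.24 with fluoxetine as an example.

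**Figure D4:**
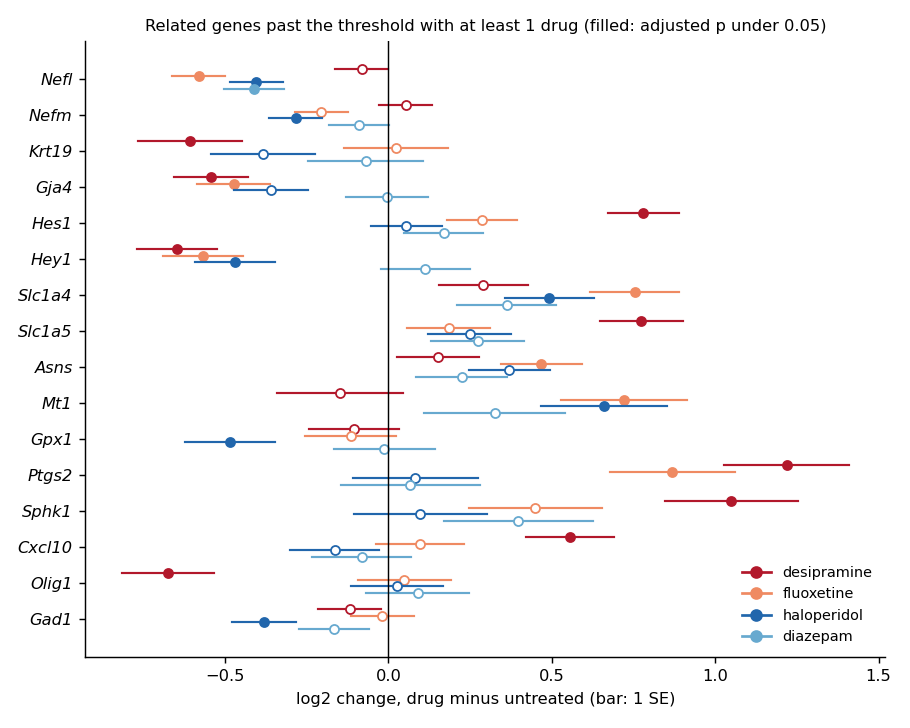
Log2 change with each drug relative to untreated cells (x axis, bars of 1 SE) for the 16 related genes that passed with at least 1 drug (y axis), coloured by drug, with filled points for an adjusted p under 0.05. Nefl is filled on the low side for 3 drugs, Hey1 for 3 and Gja4 for 2, and Ptgs2 is filled on the high side for desipramine and fluoxetine.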

How the data were processed

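Rat bead arrays (28, in 5 groups taken from the labels) were read by the authors with GenomeStudio 1.9.0, per the submitters' processing notes. The authors deposited a table, non-normalized per the file headers, of linear intensity per probe and array, and a detection p-value for each; background handling is not given in the sources used here. They also deposited normalized intensity values by an unstated method, used as an alternative. In the tables, 4 columns (2 arrays) matched no sample and were not used.

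Background correction from the detection p (offset 16), quantile normalization and the tests were done with limma 3.58.1 in R 4.3.3. The filter kept 11364 of 22523 probes, those whose detection p fell below 0.05 on 4 or more arrays; 13793 probes had 1 gene symbol and 8730 none. All arrays were fitted with 1 mean per group, as 11 contrasts, two-sided, with Benjamini-Hochberg adjustment over kept probes and 0.05 as the threshold. SE and intervals (95%) come from that fit, and precision is limited by the number of arrays. The fit was tested on simulated data.

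Whether replicate numbers pair arrays was checked by correlating same-numbered arrays after removing group means. Each correlation was over 0.1 for desipramine with untreated (0.224 to 0.468), fluoxetine with untreated (0.104 to 0.509), desipramine with fluoxetine (0.139 to 0.463), desipramine with haloperidol (0.285 to 0.421) and fluoxetine with diazepam (0.257 to 0.51), and these were treated as paired by the data. In the same order, 5 of 6, 4 of 6, 3 of 6, 3 of 6 and 3 of 4 arrays correlated best with the array of their own number. With the number as a block, the probes called were 1111 (9.78%) for desipramine and 865 (7.61%) for fluoxetine against untreated cells, where the fit without it gave 632 and 425.

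The genes and the lists of related genes were chosen with earlier results of these data known. Named from a list are up to 4 genes past the threshold with the largest change and up to 2 others detected on every array, with markers of cell types beside them; likeness names the 3 highest Pearson r. Exact permutation tests were added after seeing the data and took no account of replicate numbers. Promoters are from RefSeq (GRCr8). Alternatives were the block, scaling, the authors' values, filters, offset 50, array weights, fewer groups, array numbers, and each array left out.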

Additional observations from a re-analysis of the deposited data

Results flagged for a closer look

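In the desipramine group, Vim on replicate 6 stood apart, at 12.209 on the log2 scale (raw intensity 4062). The other 5 desipramine arrays lay between 12.399 and 12.511. The gap of that array to the nearest of the others was 0.628 of the group's range, where Dixon's 95% critical value for 6 arrays is 0.625. Of the 25 sets of values tested (5 genes in 5 groups) this was the 1 past the limit, and chance passes about 1 set in 20. Without that array, the Vim change with desipramine was -0.19 on the log2 scale, against -0.23 with it, and neither passed.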

How the results depend on the processing

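The 50 differences of the 5 genes between 2 groups kept their side of the threshold under most alternatives. The Vim fall with fluoxetine was lost, leaving 0 of 5 genes, with median scaling, no detection filter, only the groups compared, arrays 1 to 4 and arrays 5 and 6. The last 3 use fewer arrays and the second adjusts over more probes. The cause of the loss was not tested in any of these settings. The authors' normalized values (-0.41, adjusted p = 0.0242) and the replicate number as a block (-0.35, 0.0144) kept it.

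With the replicate number as a block, fitted although the haloperidol, diazepam and drug class comparisons are not shown to be paired, genes called numbered 1 for antidepressants against the other drugs (Gja1, 0.21, adjusted p = 0.00217), 1 for diazepam (Gja1, -0.30, 0.0153), 2 for haloperidol (Gja1, -0.19, 0.0465, and S100b, -0.29, 0.0485) and 7 of 30 between drugs. Beyond the pairs in the report these 7 were Gja1 for desipramine against diazepam (0.22, 0.0278) and fluoxetine against haloperidol (0.20, 0.0432), and S100b for desipramine (-0.39, 0.0148) and haloperidol (-0.45, 0.0115) against diazepam. Of all probes, 11.3% passed with the block for antidepressants against the other drugs, 1.51% for diazepam and 7.51% for haloperidol. Between drugs 5.93% to 13.1% passed with it, by pair. Of 6 haloperidol pairs 3, and of 4 diazepam pairs 2, correlated best with their own number in untreated cells. The block changed no other call of these genes. With only probes detected on all arrays, or an offset of 50, 1 of 30 drug pairs passed (S100b, haloperidol against diazepam).

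Probes called over the array moved further. With the block they were 1281 (antidepressants against others), 1111 (desipramine), 172 (diazepam), 865 (fluoxetine) and 853 (haloperidol), where the fit without it gave 813, 632, 90, 425 and 425. With median scaling they were 255, 245, 21, 158 and 84, and the share that was higher was 69.4%, 33.1%, 9.52%, 58.9% and 70.2%, against 56.7%, 60.6%, 47.8%, 59.1% and 61.2%. Array weights gave 1054 for desipramine, and only the groups compared 48 for diazepam. Arrays 1 to 4 gave 459 (antidepressants against others), 17 (diazepam) and 222 (haloperidol). Arrays 5 and 6 gave 68, 0 (desipramine, with 841 at an unadjusted p under 0.05), 2 (diazepam), 25 (fluoxetine) and 9 (haloperidol).

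Leaving out 1 array gave 593 to 919 probes (antidepressants against others), 441 to 840 (desipramine), 46 to 99 (diazepam), 310 to 438 (fluoxetine, 0 to 1 of the 5 genes) and 302 to 472 (haloperidol), and 0 to 2 drug pairs. It changed signs over these ranges: Gfap with haloperidol -0.036 to 0.107; Gja1 with fluoxetine -0.027 to 0.05, and haloperidol against diazepam -0.002 to 0.09; Nes with haloperidol -0.012 to 0.098, with diazepam -0.059 to 0.057, desipramine against haloperidol -0.037 to 0.066, and haloperidol against diazepam -0.022 to 0.111; Vim desipramine against haloperidol -0.066 to 0.05.

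Other sign changes were in values near 0, none called. Median scaling gave Gfap -0.048 with diazepam and 0.103 for haloperidol against diazepam, Gja1 -0.123 with fluoxetine, Nes -0.067 with desipramine, -0.17 with diazepam and -0.078 for desipramine against haloperidol, and S100b -0.058 with diazepam and -0.02 for desipramine against haloperidol. The authors' values gave Gfap 0.001 for haloperidol against diazepam, Gja1 -0.068 with fluoxetine, Nes -0.018 with diazepam, and Vim 0.049 for desipramine against haloperidol. Array weights gave Gfap -0.002 with haloperidol and Nes -0.008 for desipramine against haloperidol. The block gave Nes -0.026 for desipramine and -0.029 for haloperidol against diazepam. Arrays 1 to 4 gave Nes -0.017 for desipramine against haloperidol, S100b 0.04 for desipramine against fluoxetine and -0.069 with diazepam, and Vim 0.003 with diazepam. Arrays 5 and 6 gave Gja1 -0.031 and S100b 0.064 with fluoxetine, Nes -0.037 for haloperidol against diazepam, and Vim 0.106 for desipramine and 0.003 for fluoxetine against haloperidol. The causes were not tested. Raw Gfap intensity was low (162.5 to 330.2), and at low intensity the offset pulls differences toward 0.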
